A study of Saccharomyces cerevisiae with 31 samples.

Results

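The genes described here are 46 enzyme genes of amino acid biosynthesis in budding yeast, *Saccharomyces cerevisiae*, chosen by identifier for the pathway they serve. The choice was made with earlier results of these data known. They fall into 7 groups: 7 genes of lysine, 5 of the aspartate to threonine route, 10 of the branched-chain amino acids, 8 of the aromatic amino acids, 5 of arginine, 5 of histidine and 6 of asparagine, glutamine and glutamate. Serine and sulfur pathways are not among them. The whole comparison of spt6-1004 with wild type (WT) covered 5668 genes, of which 694 were listed as changed, and 14 of the 46 enzyme genes were among those.

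Yeast makes every amino acid it needs when the medium lacks them, mostly from pyruvate, oxaloacetate, 2-oxoglutarate and intermediates of glycolysis and the pentose phosphate pathway. Many of these genes share the activator Gcn4, whose translation rises when amino acids run short. Single pathways have regulators of their own, such as Lys14 for lysine and Leu3 for leucine, each of which responds to an intermediate of its pathway. In a rich medium most of these genes are read at a moderate basal level.

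RNA was measured in spt6-1004, spt6-S8A and spt6-S8E mutants, which differ in their copy of SPT6, and in WT, with 3 libraries for each of the 4 genotypes. Spt6, a histone chaperone and a partner of Spn1, accompanies elongating RNA polymerase II. The spt6-1004 allele is temperature-sensitive, spt6-S8A puts alanine in place of serines that casein kinase 2 phosphorylates, and spt6-S8E puts glutamate there. All cultures grew at 30 °C in YPD, a rich glucose medium that supplies amino acids, and were collected at an optical density of 1. The labels name no other alleles, so auxotrophic markers shared by all groups (disrupted copies of genes such as LEU2, HIS3, TRP1 or LYS2 in many laboratory strains) are not known, and a member used as such a marker could not be told from one that is simply unlisted. Whether replicates were separate cultures is not said in the labels, so the p-values reflect only how far these libraries spread, which may be technical.

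The deposited tables hold the authors' DESeq2 comparison of each mutant with WT and no value per library, so no level per sample and no depth is given here. A gene is listed in a table when its adjusted p was under 0.05. "Listed higher" and "listed lower" refer to the mutant relative to WT. The log2 fold change, its standard error (SE) and the base mean, which is an average over all 12 libraries in a unit that is not stated, are the authors'. The 95% intervals were computed from the SE. Whether the fit corrected for differences in depth between libraries is not shown by the deposited values. A gene without a row has no known value: it may have missed the threshold or may not have entered the adjustment.

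In spt6-1004, 5 enzyme genes were listed higher and 9 lower than in WT, and 32 were not listed in the authors' deposited table. The 5 higher genes were LYS1, LYS9, GDH3, ARG4 and TRP2, and the 9 lower genes were THR1, ARO4, GLN1, GLT1, ILV1, ILV6, ARO1, ARO2 and ILV2. The higher genes made up 10.9% of the 46, beside 5.63% of all genes adjusted, and the lower genes 19.6%, beside 6.62% of all genes adjusted. For either direction the share was 30.4%, beside 12.2% of all genes. Because the set was chosen with earlier results known, these shares and those per pathway below may reflect the choice. They are no test of enrichment. Among the higher genes the median log2 fold change was 2.06 in the authors' deposited table, against a median of 1.64 over all genes listed higher. Among the lower genes it was -1.12 in the authors' deposited table, against -1.29 over all genes listed lower. These medians cover listed genes alone, which had to differ from WT to be listed. In RNA from whole cultures, fewer cells that express a gene and less of its RNA per cell cannot be told apart.

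**Figure D1:**
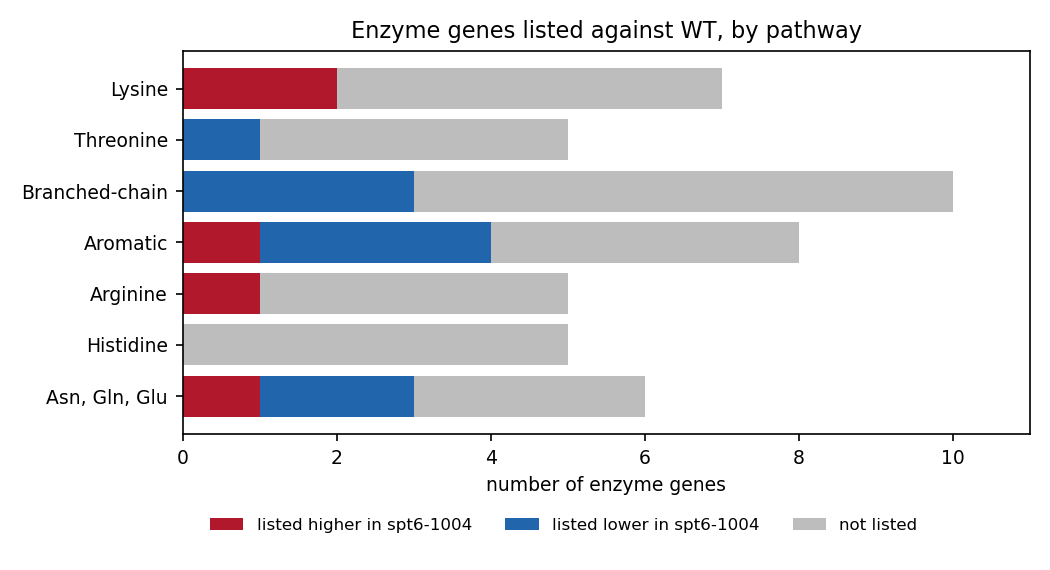
Number of enzyme genes in each of the 7 pathway groups (horizontal axis) that were listed higher in spt6-1004 than in WT, listed lower, or not listed. Listed genes were 2 higher for lysine, 1 higher for arginine, 1 lower for threonine and 3 lower for the branched-chain group. None of the 5 histidine genes was listed. In groups of 5 to 10 genes, 0 in a direction is near the share of all genes adjusted, 5.63% higher and 6.62% lower. Genes outside the set, such as LEU2, are not counted.

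The lysine pathway held the largest increase of the set. Yeast builds lysine through 2-aminoadipate, a route of fungi that plants and most bacteria do not use. LYS1 and LYS9, which encode the saccharopine dehydrogenases of the last 2 steps, were listed higher in the authors' deposited table, and the other 5 genes were not listed. The 2 listed genes are 28.6% of the lysine genes, beside 5.63% of all genes adjusted that were listed higher. LYS1 (YIR034C), whose enzyme releases lysine, was at a log2 fold change of 2.91 with an SE of 0.39 in the authors' deposited table (DESeq2 adjusted p = 5.47e-12), a 7.52-fold increase in spt6-1004 over WT with an interval of 2.15 to 3.67 on the log2 scale. It ranked 46 among the 319 genes listed higher and lies on chromosome IX from 419615 to 420736 (R64 annotation). LYS9 (YNR050C), whose enzyme forms saccharopine, was at 2.06 with an SE of 0.35 in the authors' deposited table (DESeq2 adjusted p = 2.72e-07), a 4.16-fold increase, and lies on chromosome XIV from 714048 to 715388. The intervals of these neighbours in the pathway overlap, 1.36 to 2.75 for LYS9 and 2.15 to 3.67 for LYS1, both from the authors' deposited table.

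The earlier lysine genes were absent from the list. They are LYS20 and LYS21, near-identical genes of homocitrate synthase, LYS4 for homoaconitase, LYS12 for homoisocitrate dehydrogenase and LYS2 for aminoadipate reductase. The 2 listed lysine genes thus encode the steps after aminoadipate reductase, and the difference between early and late steps was not tested, since the early genes have no deposited value. An unlisted gene that was adjusted had a p of at least 0.00613, so its Wald statistic was no larger than 2.74 in size. At the median SE of all listed genes, 0.35, that allows a log2 fold change of up to 0.96 in either direction, and at their largest SE, 0.54, one of up to 1.47. Absence from the list therefore leaves room for changes as large as that of ARG4 or TRP2.

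**Figure D2:**
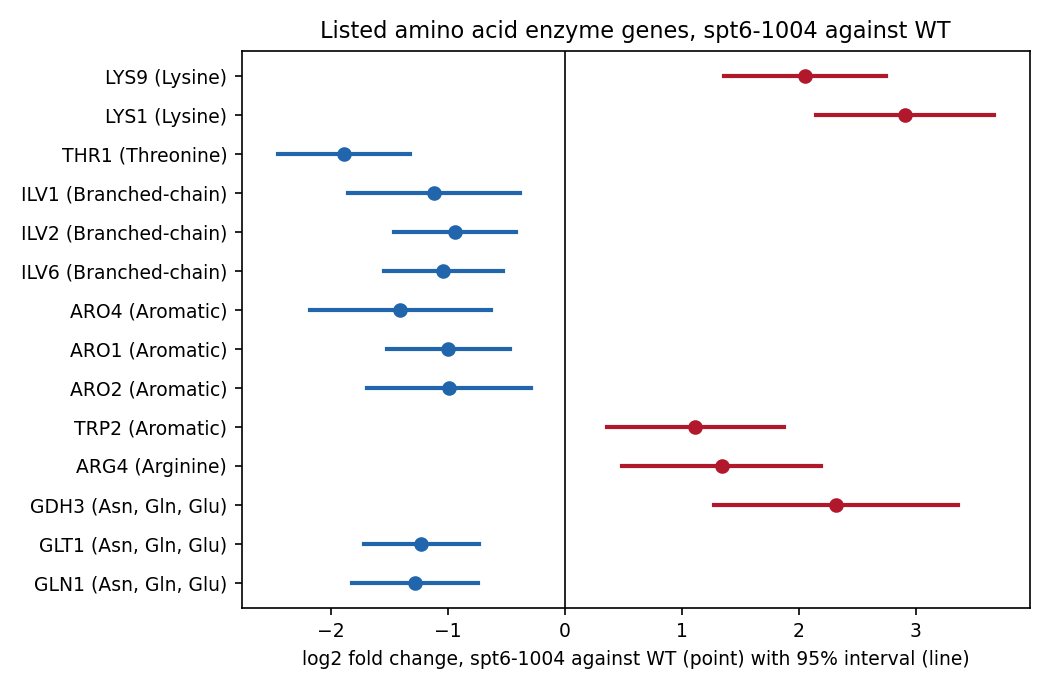
Log2 fold change of spt6-1004 against WT (horizontal axis) for the 14 listed enzyme genes, in pathway order from top to bottom, with points for the authors' values and lines for the 95% interval. LYS1 at 2.91 and THR1 at -1.89 mark the ends, and most of the 9 lower genes lie close to -1.

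THR1 (YHR025W) was the enzyme gene with the largest decrease. The threonine route starts from aspartate with the kinase Hom3, the dehydrogenases Hom2 and Hom6 lead to homoserine, and Thr1, homoserine kinase, commits homoserine to threonine before the synthase Thr4. THR1 was at -1.89 with an SE of 0.29 in the authors' deposited table (DESeq2 adjusted p = 3.39e-09), which is 27.0% of the WT level, with an interval of -2.45 to -1.32. It ranked 34 among the 375 genes listed lower and lies on chromosome VIII from 159438 to 160511. HOM3, HOM2, HOM6 and THR4 were not listed. THR1 alone is 20% of this group of 5 genes, beside 6.62% of all genes adjusted that were listed lower.

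Next to threonine in metabolism stands Ilv1, threonine deaminase, which turns threonine into the precursor of isoleucine. Of the 10 branched-chain genes in the set, 3 were listed lower (30%, beside 6.62% of all genes adjusted). For 10 genes, the 0 listed higher is near the share of all genes, 5.63%. The 3 lower genes encode the first enzymes of the route. ILV1 (YER086W) was at -1.12 with an SE of 0.38 in the authors' deposited table (DESeq2 adjusted p = 0.0284), 46.1% of the WT level. ILV2 and ILV6 encode the catalytic and the regulatory subunit of acetolactate synthase, which acts for isoleucine as well as for valine and leucine. ILV2 (YMR108W) was at -0.94 with an SE of 0.27 in the authors' deposited table (DESeq2 adjusted p = 0.00597), with an interval of -1.46 to -0.41. ILV6 (YCL009C) was at -1.04 with an SE of 0.26 in the authors' deposited table (DESeq2 adjusted p = 0.00108), with an interval of -1.54 to -0.53. The subunits' intervals overlapped over most of their width. Their levels stood at 52.2% of WT for ILV2 and 48.7% of WT for ILV6 in the authors' deposited table.

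The other branched-chain genes of the set were not listed. These are ILV5 and ILV3, whose enzymes complete the common route, and the leucine genes LEU4, LEU9 and LEU1. The transaminase genes BAT1, for the mitochondrial enzyme, and BAT2, for the cytosolic one, are the rest. LEU2, a leucine gene outside the set, was listed higher at 3.12 and is described below with the further synthesis genes. ILV1 lies on chromosome V from 328477 to 330207, ILV2 on chromosome XIII from 484084 to 486147 and ILV6 on chromosome III from 104619 to 105548.

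The aromatic amino acids share a route to chorismate, the branch point from which tryptophan, phenylalanine and tyrosine are made. Of the 8 genes, 3 of the 4 that lead to chorismate were listed lower, and 1 of the 4 tryptophan genes in the set was listed higher. Over the 8 genes that is 37.5% lower, beside 6.62% of all genes adjusted, and 12.5% higher, beside 5.63%. ARO4 (YBR249C), for the DAHP synthase that tyrosine inhibits, was at -1.40 with an SE of 0.39 in the authors' deposited table (DESeq2 adjusted p = 0.00509), 37.8% of the WT level. ARO1 (YDR127W) encodes a protein with 5 enzyme activities that carries the pathway to the step before chorismate synthase. It was at -0.99 with an SE of 0.27 in the authors' deposited table (DESeq2 adjusted p = 0.00324). ARO2 (YGL148W), for chorismate synthase, was at -0.99 with an SE of 0.36 in the authors' deposited table (DESeq2 adjusted p = 0.0483), close to the threshold. All 3 thus stood at 37.8% to 50.4% of the WT level in spt6-1004, and their intervals overlapped.

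TRP2 (YER090W) encodes the anthranilate synthase subunit that draws on chorismate for tryptophan, and it was listed higher. Its log2 fold change was 1.12 with an SE of 0.39 in the authors' deposited table (DESeq2 adjusted p = 0.0347), a 2.17-fold increase in spt6-1004 over WT with an interval of 0.36 to 1.87. This interval lies on the other side of 0 from those of ARO4, ARO1 and ARO2. TRP3, TRP4 and TRP5, for other enzymes of tryptophan synthesis, and ARO3, for the DAHP synthase that phenylalanine inhibits, were not listed. TRP1, a further tryptophan gene outside the set, was not listed either. ARO4 lies on chromosome II from 716882 to 717994, ARO1 on chromosome IV from 704484 to 709250, ARO2 on chromosome VII from 226399 to 227529 and TRP2 on chromosome V from 337949 to 339472.

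Arginine had 1 of 5 genes listed, in the higher direction (20%, beside 5.63% of all genes adjusted). ARG4 (YHR018C) encodes argininosuccinate lyase, the last enzyme of the pathway, and was at 1.34 with an SE of 0.43 in the authors' deposited table (DESeq2 adjusted p = 0.0203), a 2.53-fold increase in spt6-1004 over WT with an interval of 0.49 to 2.19. It lies on chromosome VIII from 140011 to 141402. ARG5,6, ARG8, ARG3 and ARG1, for steps between acetylglutamate and argininosuccinate, were not listed. None of the 5 histidine genes, HIS1, HIS7, HIS3, HIS5 and HIS4, was listed in either direction. With 5 genes, 0 listed is near the share of all genes adjusted, 12.2% in either direction.

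Among the genes of ammonium assimilation, GLN1 and GLT1 were listed lower, and GDH3 alone, at a base mean of 2.25, was listed higher. Of the 6 genes in the group with asparagine, 2 were listed lower (33.3%, beside 6.62% of all genes adjusted) and 1 higher (16.7%, beside 5.63%). Glutamate dehydrogenase makes glutamate from 2-oxoglutarate and ammonium, glutamine synthetase (Gln1) adds a further ammonium to give glutamine, and glutamate synthase (Glt1) returns glutamine to glutamate. GLN1 (YPR035W) was at -1.28 with an SE of 0.27 in the authors' deposited table (DESeq2 adjusted p = 7.89e-05), 41.1% of the WT level. GLT1 (YDL171C) was at -1.23 with an SE of 0.25 in the authors' deposited table (DESeq2 adjusted p = 3.1e-05), 42.8% of the WT level. The intervals of the genes of this cycle, -1.82 to -0.74 for GLN1 and -1.72 to -0.73 for GLT1 from the authors' deposited table, overlapped almost fully.

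GDH3 (YAL062W), for the glutamate dehydrogenase isoform that yeast uses mainly on non-fermentable carbon, was listed higher. It was at 2.32 with an SE of 0.53 in the authors' deposited table (DESeq2 adjusted p = 0.000268), a 4.99-fold increase in spt6-1004 over WT with an interval of 1.28 to 3.36. Its base mean was 2.25, the lowest of the 14 listed enzyme genes, in the authors' deposited table. If the fit used whole reads, that is a total of 27 over 12 libraries, and an unshrunken fold change could not have an SE under 0.56, while the deposited SE is 0.53. Fold changes shrunken towards 0 have smaller errors, and 30 listed genes lie under this bound, GDH3 alone among the enzyme genes. GDH1, for the isoform used in glucose medium, is similar in sequence to GDH3 and can share reads with it, and it was not listed. The asparagine synthetase genes ASN1 and ASN2, also similar to each other, were not listed. GLN1 lies on chromosome XVI from 642208 to 643320, GLT1 on chromosome IV from 149203 to 155640 and GDH3 on chromosome I from 31567 to 32940.

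The set holds 6 isozyme pairs: LYS20 and LYS21, LEU4 and LEU9, BAT1 and BAT2, ARO3 and ARO4, GDH1 and GDH3, and ASN1 and ASN2. Of these 12 genes, ARO4, lower, and GDH3, higher, were the 2 listed in spt6-1004. That is near the 12.2% of all genes adjusted that were listed in either direction. No pair had both genes listed, which at that share says little about isozymes. The unlisted partners have no deposited value, so a difference between isozymes was not tested.

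Direction and level went together among the listed genes. The 5 higher enzyme genes had base means of 2.25 to 19.2, with a median of 12.4, and the 9 lower ones 16.25 to 77, with a median of 41.7, in the authors' deposited table. Over all listed genes, the medians were 12.4 for higher and 30.8 for lower genes. Within the base mean range of the higher enzyme genes, 191 of 298 listed genes were higher, and within that of the lower enzyme genes 240 of 343 were lower. The base mean includes the spt6-1004 libraries themselves, and the part of level in these directions was not tested.

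**Figure D3:**
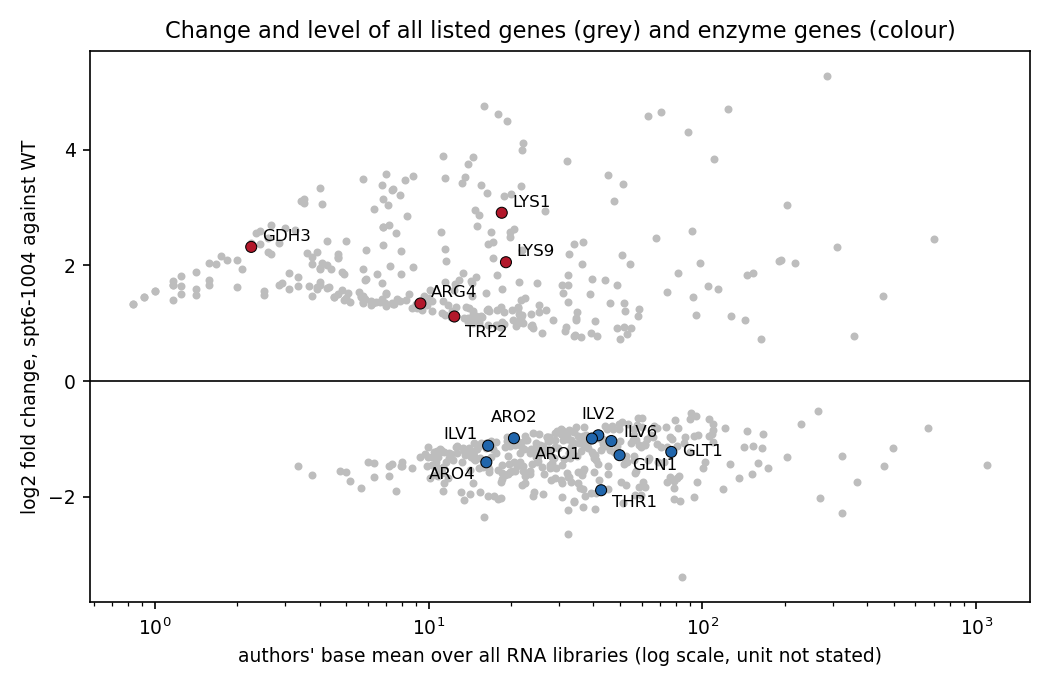
Log2 fold change of spt6-1004 against WT (vertical axis) and the authors' base mean (horizontal axis, log scale) for all 694 listed genes in grey, with the 14 enzyme genes coloured and named. The 5 higher enzyme genes lie at base means up to 19.2 and the 9 lower ones at 16.25 and above, inside the spread of other listed genes.

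Other genes of amino acid metabolism were read from 4 lists: 20 further synthesis genes, 15 regulators, 20 permeases and 10 genes of amino acid breakdown. These lists too were chosen with earlier results of these data known. Of these 65 genes, 6 were listed higher and 6 lower in spt6-1004, 9.23% of the lists in each direction, beside 5.63% higher and 6.62% lower of all genes adjusted. GCN4, the activator shared by many of the pathways, was listed lower, at -1.32 with an SE of 0.32 in the authors' deposited table (DESeq2 adjusted p = 0.000578), 40.0% of the WT level. Gcn4 is set mainly through its translation, which RNA levels do not show. GAT1, an activator of nitrogen-use genes, was at 1.48 with an SE of 0.48 in the authors' deposited table (DESeq2 adjusted p = 0.0224). LYS14, LEU3, ARG80, ARG81 and the other 9 regulators were not listed.

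Among the 20 permeases, 4 were listed lower (20%, beside 6.62% of all genes) and 1 higher (5%, beside 5.63%, so near the share of all genes). TAT1 at -1.23, TAT2 at -1.31, BAP2 at -1.15 and GNP1 at -1.20, which take up aromatic, branched-chain and other neutral amino acids or glutamine, were the lower ones in the authors' deposited table, with adjusted p-values of 0.00179, 0.0305, 0.00121 and 0.021 (DESeq2). The general permease gene GAP1, which nitrogen-rich media repress, was at 1.59 with an SE of 0.53 in the authors' deposited table (DESeq2 adjusted p = 0.0273). TAT1 and BAP2 are adjacent on chromosome II, from 376574 to 378433 and from 373861 to 375690.

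Of the 20 further synthesis genes, 2 were listed higher (10%, beside 5.63% of all genes) and 1 lower (5%, beside 6.62%). LEU2, for isopropylmalate dehydrogenase, was at 3.12 with an SE of 0.53 in the authors' deposited table (DESeq2 adjusted p = 1.87e-07), at a base mean of 3.42. LEU2 is often disrupted as a marker, the labels do not give its allele, and the other leucine genes LEU4, LEU9 and LEU1 were not listed. The aromatic transaminase gene ARO8 was at 0.73 with an SE of 0.25 in the authors' deposited table (DESeq2 adjusted p = 0.0358). The aspartate transaminase gene AAT2 was at -0.88 with an SE of 0.30 in the authors' deposited table (DESeq2 adjusted p = 0.0305).

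In the breakdown list, 2 of 10 genes were listed higher and 0 lower, beside 5.63% and 6.62% of all genes. With 10 genes, 0 lower is near the share of all genes. CHA1, the serine and threonine deaminase gene that those amino acids induce, was at 3.87 with an SE of 0.45 in the authors' deposited table (DESeq2 adjusted p = 1.2e-15), a 14.6-fold increase in spt6-1004 over WT. PUT1, for proline oxidase, was at 2.14 with an SE of 0.51 in the authors' deposited table (DESeq2 adjusted p = 0.000564), a 4.40-fold increase.

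**Figure D4:**
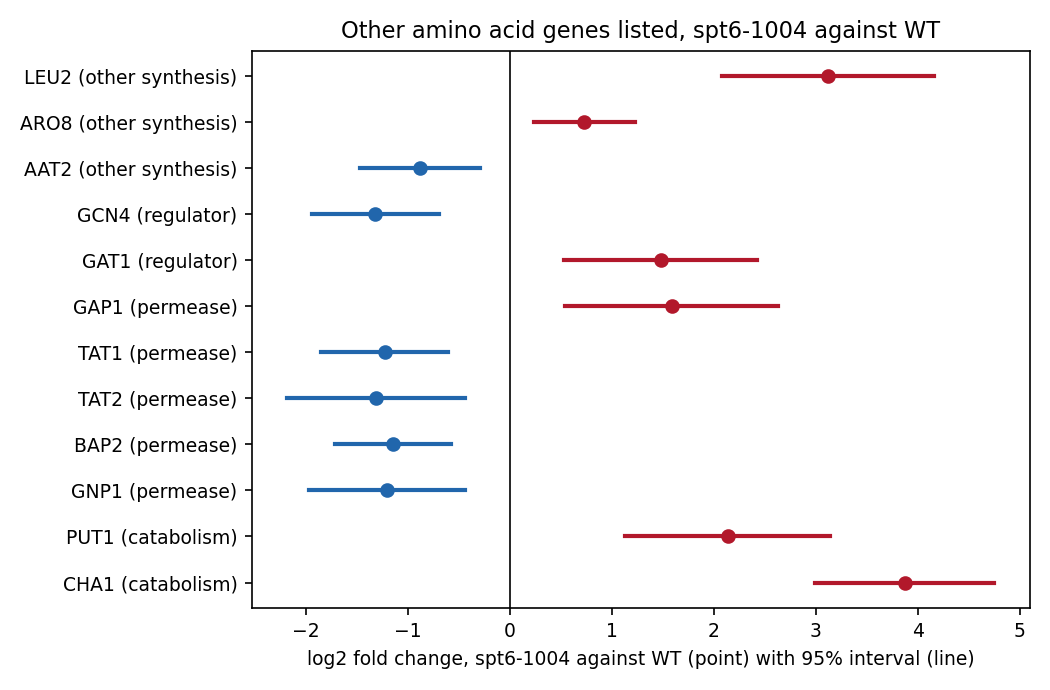
Log2 fold change of spt6-1004 against WT (horizontal axis) for the 12 listed genes of the 4 further amino acid lists, with points for the authors' values and lines for the 95% interval. CHA1 at 3.87 and LEU2 at 3.12 are the highest, and GCN4 lies with the 4 lower permease genes between -1.15 and -1.32.

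In spt6-S8A and in spt6-S8E, 0 of the 46 enzyme genes and 0 of the 65 further genes were listed by the authors' DESeq2 fit. The authors' deposited table of spt6-S8A lists 23 genes, 5.34% of the 431 adjusted, and that of spt6-S8E lists 1 gene, 0.0176% of 5668. Which of the 46 and 65 genes were among those 431 is not given, so the spt6-S8A share may not apply to them. The counts of 0 in spt6-S8E are near its share of all genes. Unadjusted p-values of unlisted genes were not analysed here. All 3 comparisons use the same WT libraries.

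What absence from those tables allows can be bounded for the 14 enzyme genes listed in spt6-1004. In spt6-S8A an unlisted gene that was adjusted had a Wald statistic no larger than 2.99 in size. The lowest base mean in that table is 32.6, so THR1, ILV2, ILV6, ARO1, GLT1 and GLN1, with base means of 39.5 to 77, were taken to be among the 431 genes adjusted, and for the other 8 this is not known. The SEs of the 23 genes in both tables were 0.87 to 1.09 times as large in spt6-S8A as in spt6-1004. With the spt6-1004 SE times 1.09, the log2 fold change of THR1 in spt6-S8A would lie within 0.94 of 0, while its spt6-1004 interval runs from -2.45 to -1.32. For the other 5 the limits were 0.82 to 0.90 and reached into the spt6-1004 interval, so for them equal decreases in spt6-S8A and spt6-1004 remain possible.

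In spt6-S8E an unlisted gene that was adjusted could have a Wald statistic of up to 4.29 in size, so the limits are wider. They were computed with the SE ratio of the 1 gene shared with spt6-1004, 1.03. LYS1 would lie within 1.72 of 0 in spt6-S8E, against an interval of 2.15 to 3.67 in spt6-1004, and THR1 within 1.28, against -2.45 to -1.32. For the other 12 listed enzyme genes the spt6-S8E limits, 1.12 to 2.36, reached into their spt6-1004 intervals. These limits are approximate and are no test of a difference between the mutants. They borrow each gene's SE from spt6-1004, where its level, as for LYS1, may differ from that in the other mutants.

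**Figure D5:**
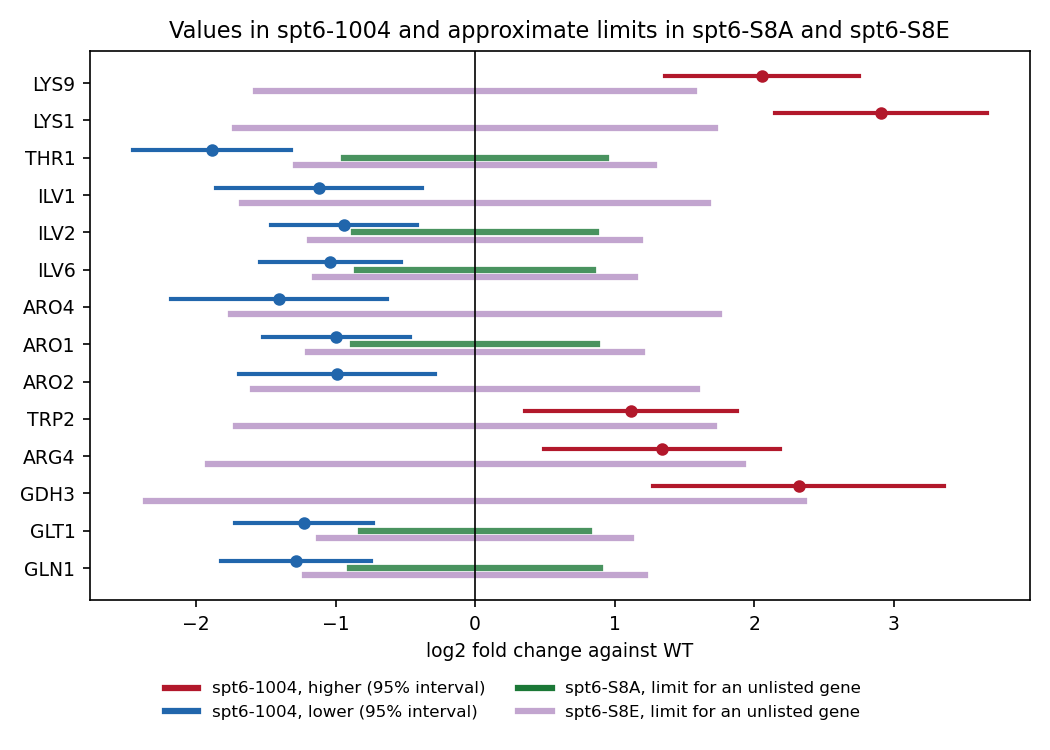
Log2 fold change against WT (horizontal axis) of the 14 enzyme genes: points and thin lines give the spt6-1004 value with its 95% interval, and thick lines the approximate range that an unlisted gene can have in spt6-S8A (6 genes) or spt6-S8E (14 genes). The ranges, which scale the SE of spt6-1004, stay clear of the spt6-1004 interval for THR1 in both mutants and for LYS1 in spt6-S8E.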

How the data were processed

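Stranded RNA libraries from ribosomal RNA-depleted RNA, with ERCC spike-ins added after that step per the labels' protocols, were compared between 3 spt6 mutants and WT. The submitters' processing notes name build sacCer3, STAR 2.5.2b and Salmon 0.8.1, along with DESeq2 1.14.1, cutadapt 1.10, SAMtools 1.3.1 and bedtools 2.26, without their roles or order. Per the file headers, each deposited row gives a base mean, a log2 fold change of mutant against WT with its SE, a Wald statistic and a two-sided p-value with its adjusted p-value. The deposited Wald score equals the log2 fold change divided by its SE in all 694, 23 and 1 rows. Base means times 12 were whole numbers in every row, with a tolerance of 1e-06, and no source used here gives their unit. Counts divided by unequal factors per library would rarely give whole sums, so the base means show no such scaling. Differences in depth between libraries may therefore be part of the fold changes and of the percentages of the WT level. Depth per library is unknown.

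The number of genes adjusted was worked back from the deposited p-values and their Benjamini-Hochberg adjustment, a step checked on 50 simulated sets. Recomputed adjusted p-values equalled the deposited ones in 694, 23 and 1 rows; for spt6-S8E this holds by construction. Genes were counted with no new test, and 95% intervals are the log2 fold change with a normal interval from its SE. Named genes are every listed gene of the set and of the 4 further lists. The members and lists were chosen with earlier results of these data known. Names and coordinates came from RefSeq genes of assembly R64, another name for sacCer3, where all 46 and all 65 identifiers matched. 1 other synthesis gene was left out of the further lists and their counts and is not reported here. No motif search was made, as no sequence was used here. The other 19 samples, chromatin immunoprecipitations and inputs, were not analysed here. Computations used Python 3.11.15 with pandas 2.3.3 and SciPy 1.17.1. Counts were repeated at an adjusted p under 0.01, at an absolute log2 fold change of at least 1 and at a base mean of at least 10.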

Additional observations from a re-analysis of the deposited data

How the results depend on the processing

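At an adjusted p under 0.01, 3 enzyme genes stayed listed higher in spt6-1004 (of 5) and 7 lower (of 9), beside 3.62% and 4.55% of all genes; ILV1 at -1.12, ARO2 at -0.99, TRP2 at 1.12 and ARG4 at 1.34 were no longer called. Under that setting the higher aromatic and the higher arginine counts were 0 each, the lower count of other synthesis genes 0, the higher counts of regulators and permeases 0 each, and the lower count of permeases 2. At an absolute log2 fold change of at least 1, 5 enzyme genes were higher and 6 lower, beside 5.2% and 5.42% of all genes, the lower aromatic count was 1 and the lower count of other synthesis genes 0. At a base mean of at least 10, 3 enzyme genes were higher and 9 lower. No share of all genes stands beside these counts, since unlisted genes have no deposited base mean. At this setting the higher counts of arginine, of the glutamate and asparagine group, of regulators and of permeases were 0 each. The higher count of the breakdown list was 1. The higher count of other synthesis genes was 1 under each of these 3 settings, against 2 as deposited. The other 55 counts under these settings were within 1.5 times the count as deposited. Each setting kept only a part of the genes already listed, so no direction could change and a count of 0 had to stay 0. That holds too for the 0 in spt6-S8A adjusted over 5668 genes, where no enzyme gene had a deposited p-value to adjust. No paired analysis was possible because the deposited tables hold no values per library; for the same reason no library could be left out, and the comparison between mutants had no enzyme gene in 2 tables to test.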

Other observations

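The protein-coding genes next to the enzyme genes on the chromosomes were also read. A listed neighbour in spt6-1004 was present beside 5 of the 14 listed enzyme genes (35.7%) and beside 11 of the 32 unlisted ones (34.4%), against 26.0% of all listed genes and 21.3% of all protein-coding genes. MET6, a methionine synthase gene, lies next to TRP2 and was higher too, at 2.57 (SE 0.38) in the authors' deposited table. RPL9A, a ribosomal protein gene, lies next to ARO2 and was lower too, at -1.76 (SE 0.42) in the authors' deposited table. In the other 3 cases the neighbour had the opposite sign: SPG4 at 3.15 beside ILV2, DED81 at -1.31 beside ARG4 and FLO9 at -1.64 beside GDH3 in the authors' deposited table.

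Some unlisted enzyme genes stand beside genes with large changes. TKL2, a transketolase gene at 4.76 in the authors' deposited table, neighbours LYS2, and PMA1, which encodes the main proton pump and was at -2.28 there, neighbours LEU1. HIS1 has a listed neighbour on each side, GIP2 at 1.95 and FCY2 at -1.07 in the authors' deposited table.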
